A study of Mus musculus with 6 samples.

Results

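The interferon-induced and MHC class I genes are 39 genes of the innate antiviral response and of antigen presentation, listed by name from what is known of the pathway. The rule uses no measured value, but the list was drawn up with earlier results of these data known. The genes were sorted by role into 7 receptors and transcription factors, 6 RNA sensors and enzymes of the RNA-activated kinase and oligoadenylate synthetase families, 10 antiviral effectors, 8 genes of the ISG15 system, TRIM proteins and other induced genes, and 8 genes of MHC class I and antigen processing. A gene was read from the brightest probe set, by mean over all arrays, that the platform annotation pairs with that gene alone. This gave values for 34 of the 39 genes, out of 19938 genes in all. Of these, 33 have 1 such probe set, and the transcription factor gene Irf1 has 2. Gbp2, Isg15, H2-D1 and H2-K1 lie only in probe sets that are assigned to several genes, and no value is given for them. Ifi44 was not matched to a probe set. The classical MHC class I heavy chains therefore have no value here, and the MHC class I part of the set rests on their light chain and on the processing machinery.

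Expression was measured in the hippocampus of male C57BL/6J mice at postnatal day 70, with the Affymetrix Mouse Gene 1.0 ST array. Ethanol mice had received ethanol subcutaneously at 2.5 g/kg per injection, in saline, with 2 injections on postnatal day 4 and 2 on postnatal day 7, a binge model of fetal alcohol exposure. Saline control mice had received saline alone on the same days, and there was no group without injection. RNA of 3 non-littermate males was pooled for each array, and each group had 3 arrays, which together cover 9 mice per group and 18 in all. Adults were measured long after the exposure, and no interferon or virus is named among the treatments. The question for these genes was whether their level in the adult hippocampus differs after neonatal ethanol, and whether they move together between pools.

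Type I interferons bind the receptor pair IFNAR1 and IFNAR2, whose kinases phosphorylate STAT2. It joins IRF9 in a complex that enters the nucleus and binds the interferon-stimulated response element (ISRE) in the promoters of target genes, which encode RNA sensors, inhibitors of viral replication and the machinery that loads peptides on MHC class I molecules. In the healthy brain many of these genes are expressed at low to moderate levels. Microglia, endothelium, meninges and neurons can all raise them in response to interferon.

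The promoters of the 39 genes were set beside the data, because many interferon-induced genes are known to share an element there. RefSeq promoter windows of assembly GRCm38.p6, which run from 250 bases before to 50 bases after a gene's start, were given for 33 of the 39 genes, and not for Usp18, Mx1, Mx2, Tap2, Oas2 and Ifi27. The core of the ISRE was searched as GAAANNGAAA and, for the other strand, as TTTCNNTTTC, with overlapping matches counted. It was found in 14 of the 33 genes (42.4%) and in 3.99% of all 27025 genes of the RefSeq table. A match describes the letters of the window and is no measured binding site. The stretches below are those of Ifit1, Ifit3 and Eif2ak2, the 3 genes lower in the ethanol pools in the comparison that follows, of Stat2 and B2m, whose pools did not overlap, and of Isg15, as the densest example of the element. Capitals mark the matches to the ISRE core and all stretches are printed on the strand of their gene. The Ifit1 stretch lies at chr19:34640775-34640823 on the plus strand and holds 2 matches. That of Ifit3 lies at chr19:34583363-34583426 on the plus strand and also holds 2, within the span of the gene in RefSeq (34583119 to 34588982). The Eif2ak2 stretch lies at chr17:78882535-78882564 on the minus strand, at bases 9 to 38 from the start and so within the gene. Those of Stat2 at chr10:128270266-128270295 and B2m at chr2:122147538-122147567 are on the plus strand, with 1 match each. The Isg15 stretch lies at chr4:156200865-156200906 on the minus strand and holds 3 matches, each of which overlaps the next.
Ifit1: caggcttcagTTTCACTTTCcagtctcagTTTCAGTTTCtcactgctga
Ifit3: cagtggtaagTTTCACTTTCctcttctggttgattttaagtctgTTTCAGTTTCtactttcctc
Eif2ak2: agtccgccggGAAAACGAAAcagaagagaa
Stat2: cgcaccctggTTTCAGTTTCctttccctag
B2m: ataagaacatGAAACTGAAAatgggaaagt
Isg15: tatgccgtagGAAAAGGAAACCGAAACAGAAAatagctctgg
The 2 matches of Ifit1 and the 2 of Ifit3 have the same letters, TTTCACTTTC followed by TTTCAGTTTC, at different distances.

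Values are log2 expression as the authors deposited them, and a log2 change is the ethanol mean minus the saline mean, given with its standard error (SE). The test was limma's moderated test, fitted over 23410 probe sets with a gene symbol. Arrays correlated at 0.9971 to 0.9979 over all probe sets, which are not independent replicates, and their medians ran from 5.842 to 5.893. After Benjamini-Hochberg adjustment none of the 19938 genes passed an adjusted p under 0.05 (0%; lowest adjusted p = 0.931 in limma), so that calls are given at an unadjusted p under 0.05. Expression is called at the receptor gene level when the mean lies at or below 5.36, a bound under which 95% of 1178 olfactory and vomeronasal receptor genes had their mean. These serve here as genes of little or no expression in brain. Of the 34 measured members, 26 lay above that level and 8 at or below it (Irf7, Oas2, Mx1, Mx2, Rsad2, Ifi35, Tap1 and Psmb8). The gene lists of hippocampal fields and neurons, with 9 of 9 and 7 of 7 measured genes above the receptor gene level, were detected, as the labelled tissue should show. Markers of other tissue differed between pools and between the groups. Relative to the saline average, 12 choroid plexus markers lay on average at 1.06 in ethanol pool 1, -0.27 in pool 2 and 0.63 in pool 3, against -0.17, -0.02 and 0.18 in the saline pools. For 14 thalamus markers these means were 0.83, 0.31 and 0.14 in the ethanol pools, against 0.01, -0.00 and -0.01 in the saline pools. Of the choroid plexus markers 3 of 12 were higher after ethanol at an unadjusted p under 0.05, and 0 were lower. Of the thalamus markers 10 of 14 were higher and 0 lower, and in 8 of them the pools did not overlap. Over all genes 2.80% were higher, 2.41% were lower and 10.4% did not overlap. The thalamus list holds Tcf7l2, Synpo2 and Vipr2, which the authors report as raised by ethanol on these same arrays. Its counts were therefore in part fixed in advance.

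The interferon-induced and MHC class I genes as a set differed little between ethanol and saline hippocampus. Of the 34 measured members, 1 was higher (Mx1) and 3 were lower (Eif2ak2, Ifit1 and Ifit3) at the unadjusted threshold, and after adjustment 0 were left (lowest adjusted p = 0.931 in limma). The 1 higher member is 2.94% of the set, where 2.80% of all genes were higher, and the 3 lower members are 8.82%, where 2.41% of all genes were lower. The ethanol and saline pools did not overlap in 5 members (14.7%), where 10.4% of all genes did not overlap. The 5 are Mx1 and B2m, higher in every ethanol pool, and Stat2, Ifit1 and Trim25, lower in every ethanol pool. Changes were positive in 14 members and negative in 20, and the median log2 change was -0.02 in the set, against 0.0001 over all genes. Among the members above the receptor gene level the median was -0.02, against -0.01 over all 12439 such genes. In 29 of the 34 members the 95% confidence interval lay within 1.2-fold of the saline level in both directions, and the outermost interval bounds over the set were 0.765-fold and 1.25-fold. The members varied somewhat more between pools than other genes, with a median SD within groups of 0.08 against 0.06 over all genes. In bulk tissue fewer cells of a type and less RNA per cell cannot be told apart.

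**Figure D1:**
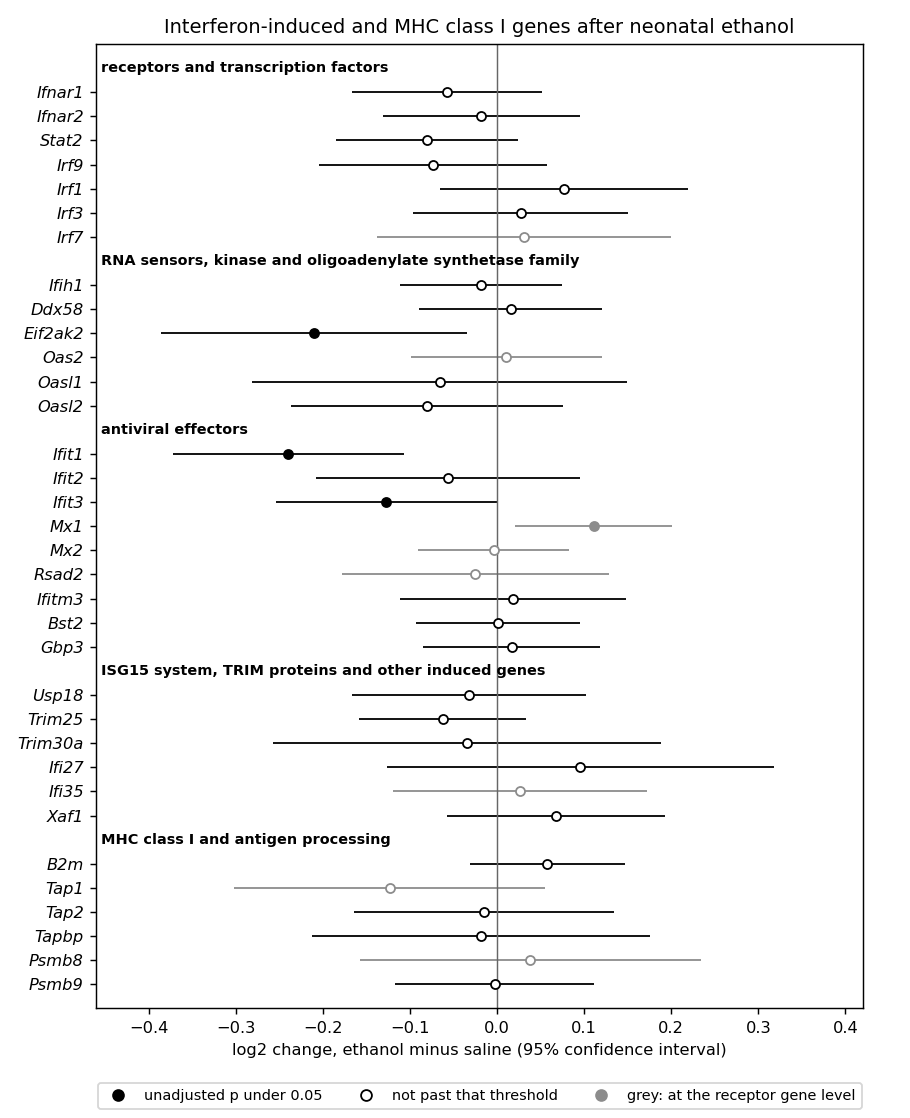
Log2 change (ethanol minus saline, horizontal axis) of the 34 measured interferon-induced and MHC class I genes, in 5 role groups, with points for the change and bars for the 95% confidence interval of limma. Filled points are the 4 genes past an unadjusted p under 0.05, and grey marks the 8 genes at the receptor gene level, Mx1 among them; most bars cross 0.

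Of the receptors and transcription factors, 7 of 7 were measured and 0 passed the unadjusted threshold. Ifnar1, which encodes one chain of the type I interferon receptor, had values of 9.09, 9.06 and 9.09 in ethanol pools 1, 2 and 3, against 9.12, 9.07 and 9.22 in saline pools 1, 2 and 3 (log2 change -0.06 ± 0.05, SE). Ifnar2, the other chain, had 9.46, 9.30 and 9.41 in the ethanol pools, against 9.40, 9.42 and 9.40 in the saline pools (-0.02 ± 0.05). The receptor pair was well expressed, and its ethanol and saline pools overlapped. Stat2, the signal transducer that brings the complex its activation domain, had 7.76, 7.80 and 7.78 in the ethanol pools, against 7.94, 7.81 and 7.83 in the saline pools. All 3 ethanol pools lay below all 3 saline pools, but the nearest were 7.80 and 7.81, and the change of -0.08 ± 0.05 did not pass in limma (unadjusted p = 0.114, 95% confidence interval -0.19 to 0.02). Irf7, the factor that amplifies interferon production, lay at the receptor gene level with 4.78, 5.08 and 4.99 in the ethanol pools and 4.88, 4.98 and 4.90 in the saline pools (0.03 ± 0.07). It had the largest spread within groups of this role, and the groups overlapped. Irf9, the DNA-binding partner of STAT2, and Irf3, which is activated by the RNA sensors, did not pass, although Irf9 passed at -0.13 without ethanol pool 3. Nor did Irf1, whose 2 probe sets differ in sign, at 0.08 ± 0.06 for the brighter and -0.03 ± 0.05 for the other.

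Among the RNA sensors and the kinase and oligoadenylate synthetase families, 1 of 6 genes was lower and 0 were higher. Of all genes 2.41% were lower and 2.80% higher. Eif2ak2 encodes PKR, the kinase that binds double-stranded RNA and halts translation. It had 5.57, 5.50 and 5.35 in ethanol pools 1, 2 and 3, against 5.55, 5.82 and 5.68 in saline pools 1, 2 and 3. Its ethanol mean was 5.47 ± 0.11 and its saline mean 5.68 ± 0.13 (SD, n = 3 each), a log2 change of -0.21 ± 0.08 or 0.864-fold (unadjusted p = 0.0244, adjusted p = 0.931 in limma). The groups overlapped, since ethanol pool 1 lay just above saline pool 1, and all of these values lie near the receptor gene level. Without saline pool 2 the change was -0.14 and without ethanol pool 3 -0.15, and it did not pass in either case, nor without saline pool 3 (-0.21) or in the methods' t-test, which takes the spread of each gene alone. Ddx58, which encodes the viral RNA sensor RIG-I, had 7.42, 7.47 and 7.42 in the ethanol pools, against 7.38, 7.50 and 7.39 in the saline pools (0.02 ± 0.05). Oasl2, one of the oligoadenylate synthetase-like genes, had 6.66, 6.77 and 6.95 in the ethanol pools, against 6.87, 6.89 and 6.86 in the saline pools (-0.08 ± 0.07). Its ethanol pools were spread over both sides of a narrow saline range, and without ethanol pool 3 it passed at -0.16. Oasl1, its relative, had 5.58, 5.51 and 5.65 in the ethanol pools, against 5.87, 5.46 and 5.61 in the saline pools (-0.07 ± 0.09), with saline pool 1 the highest and saline pool 2 the lowest of all. Ifih1, the gene of the long double-stranded RNA sensor MDA5, and Oas2, which lay at the receptor gene level, did not pass.

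Of 10 antiviral effectors 9 were measured, of which 1 was higher and 2 were lower, where 2.80% of all genes were higher and 2.41% lower. Ifit1 encodes a tetratricopeptide protein that binds viral RNA with an unmethylated cap and blocks its translation. It had 6.00, 6.07 and 6.12 in ethanol pools 1, 2 and 3, against 6.24, 6.41 and 6.26 in saline pools 1, 2 and 3. Every ethanol pool lay below every saline pool, with 6.12 and 6.24 as the nearest values. The ethanol mean was 6.06 ± 0.06 and the saline mean 6.30 ± 0.10 (SD, n = 3 each), which is a log2 change of -0.24 ± 0.06 or 0.847-fold. This is the lowest unadjusted p of the set (unadjusted p = 0.003 in limma, 95% confidence interval -0.37 to -0.11), but its adjusted p over all probe sets was 0.931. Ifit1 passed the unadjusted threshold under each of the 16 alternatives run, from -0.18 without saline pool 2 to -0.27 without saline pool 1.

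Ifit3, its neighbour on chromosome 19 and a binding partner of its protein in human cells, had 8.18, 8.08 and 8.26 in ethanol pools 1, 2 and 3, against 8.23, 8.32 and 8.35 in saline pools 1, 2 and 3. Its means were 8.17 ± 0.09 in ethanol and 8.30 ± 0.06 in saline (SD, n = 3 each). The groups overlapped, since ethanol pool 3 lay above saline pool 1, and the change of -0.13 ± 0.06 or 0.916-fold passed only narrowly (unadjusted p = 0.0496, adjusted p = 0.931 in limma). The call was lost when ethanol pool 1 (-0.13), ethanol pool 2 (-0.08), saline pool 2 (-0.12) or the third saline pool (-0.10) was left out, and in 5 of the 10 alternatives that keep every array. Ifit2, the other gene of this cluster in the set and an RNA-binding relative, had 6.37, 6.18 and 6.11 in the ethanol pools, against 6.31, 6.23 and 6.29 in the saline pools. At -0.06 ± 0.07 it did not pass, with ethanol pool 1 the highest of all 6 and the other ethanol pools the lowest. Without ethanol pool 1 Ifit2 passed at -0.13. The 3 genes lie within 34550550 to 34650009 on chromosome 19 of GRCm38.p6. Ifit3b, a close copy of Ifit3 with a probe set of its own, and Ifit1bl2, a relative of Ifit1 at the receptor gene level, were looked up after the values of Ifit1 and Ifit3 were seen. Their changes were 0.05 ± 0.07 and 0.14 ± 0.08 and did not pass. How far probes of the copies cross-hybridise was not tested.

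Mx1 encodes a dynamin-like GTPase that blocks influenza viruses, and C57BL/6 mice are known to carry a defective copy. It had 4.74, 4.73 and 4.80 in ethanol pools 1, 2 and 3, against 4.64, 4.63 and 4.67 in saline pools 1, 2 and 3. The groups did not overlap, and the means were 4.76 ± 0.04 in ethanol and 4.65 ± 0.02 in saline (SD, n = 3 each). The change of 0.11 ± 0.04 or 1.08-fold passed the unadjusted threshold (unadjusted p = 0.0214, adjusted p = 0.931 in limma), but its values lie at the receptor gene level, where other genes of little or no expression are found. It did not pass without ethanol pool 3 (0.09) or without saline pool 2 (0.11). Rsad2, the gene of the radical SAM enzyme viperin, lay at the same level with 5.19, 5.28 and 5.20 in the ethanol pools, against 5.38, 5.11 and 5.26 in the saline pools (-0.03 ± 0.07). Ifitm3, the most abundant effector, whose membrane protein hinders the fusion of viruses in endosomes, had 9.40, 9.24 and 9.41 in the ethanol pools, against 9.27, 9.39 and 9.33 in the saline pools (0.02 ± 0.06). Its ethanol pools held the 2 highest values and the lowest. Mx2, Bst2, the gene of the virus-tethering protein tetherin, and Gbp3, a guanylate-binding GTPase, did not pass.

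**Figure D2:**
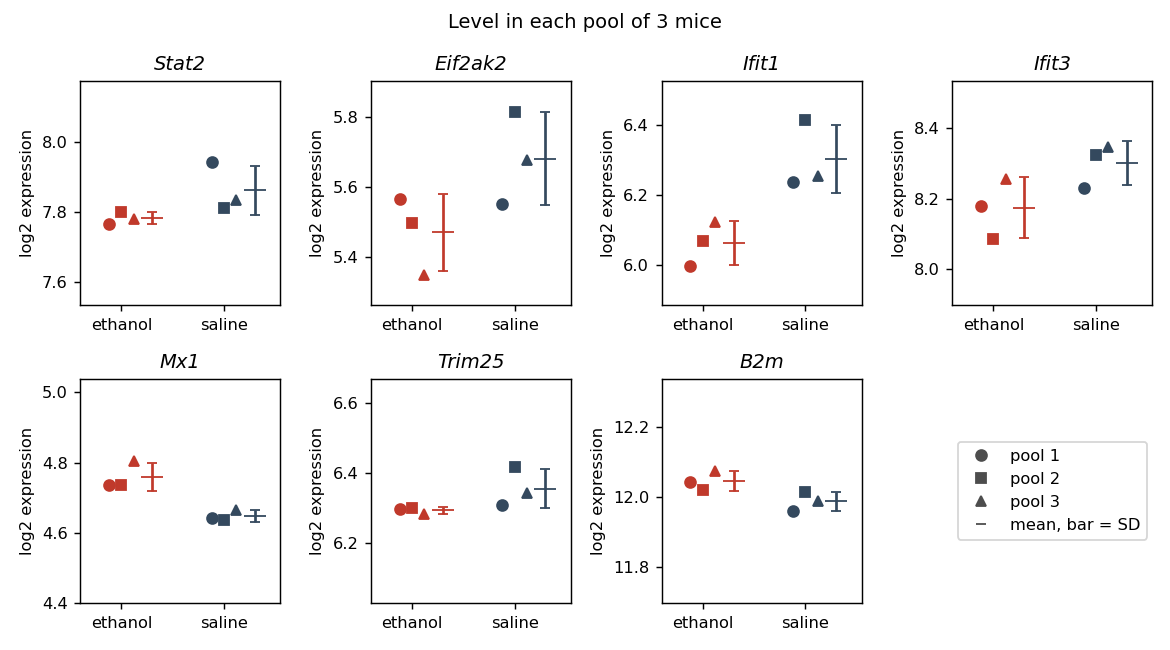
Log2 expression (vertical axis, an expanded scale in each panel) in the 3 ethanol pools, left, and the 3 saline pools, right, for the 7 genes that passed an unadjusted p under 0.05 or whose pools did not overlap, with the mean and SD beside the points. Ethanol pools of Ifit1 run from 6.00 to 6.12 and saline pools from 6.24 to 6.41, while Eif2ak2 and Ifit3 overlap.

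None of the 6 measured genes of the ISG15 system, TRIM proteins and other induced genes passed the unadjusted threshold. Trim25, the ubiquitin ligase that activates RIG-I signalling, had 6.30, 6.30 and 6.28 in ethanol pools 1, 2 and 3, against 6.31, 6.42 and 6.34 in saline pools 1, 2 and 3. The pools did not overlap, by 0.01 at the nearest, and the change of -0.06 ± 0.04 did not pass (unadjusted p = 0.172 in limma). Trim30a, a mouse TRIM protein that restrains inflammatory signalling, had 6.61, 6.98 and 6.81 in the ethanol pools, against 6.72, 6.81 and 6.98 in the saline pools (-0.03 ± 0.10). The highest ethanol and the highest saline pool were equal to the second decimal, and both groups were widely spread. Ifi27, an induced gene of a small hydrophobic protein, had 8.85, 8.65 and 9.04 in the ethanol pools, against 8.62, 8.83 and 8.80 in the saline pools (0.10 ± 0.10, unadjusted p = 0.353 in limma). Ethanol pools 3 and 1 were the highest of all and ethanol pool 2 the second lowest, and without ethanol pool 2 the gene passed at 0.19. Usp18, the protease that removes ISG15 and dampens the receptor, the leucine zipper protein gene Ifi35 and Xaf1, a gene that promotes cell death, did not pass.

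For MHC class I and antigen processing 6 of 8 genes were measured and 0 passed. B2m encodes beta-2 microglobulin, the light chain of every MHC class I molecule, and was the most abundant member. It had 12.04, 12.02 and 12.07 in ethanol pools 1, 2 and 3, against 11.96, 12.01 and 11.99 in saline pools 1, 2 and 3. The ethanol pools lay above the saline pools without overlap, but the change of 0.06 ± 0.04 did not pass (unadjusted p = 0.174 in limma, 95% confidence interval -0.03 to 0.15). Tapbp, the gene of tapasin, which holds MHC class I molecules at the peptide transporter, had 8.24, 7.92 and 8.20 in the ethanol pools, against 8.04, 8.19 and 8.20 in the saline pools (-0.02 ± 0.09). Ethanol pool 2 was the lowest of all. Psmb8, a subunit of the immunoproteasome that cuts peptides for MHC class I, lay at the receptor gene level with 4.91, 4.65 and 4.57 in the ethanol pools and 4.68, 4.75 and 4.59 in the saline pools (0.04 ± 0.09). Ethanol pools held both its highest and its lowest value. The subunits of the peptide transporter did not pass, with -0.12 ± 0.08 for Tap1 (unadjusted p = 0.152 in limma) and -0.02 ± 0.07 for Tap2. Without ethanol pool 1, Tap1 passed at -0.22, at the receptor gene level. Psmb9, the other immunoproteasome subunit of the set, was at -0.00 ± 0.05. Over the 15 measured members other than the 19 chosen for full values, changes ran from -0.12 to 0.08, with SEs of 0.038 to 0.0783, and the lowest unadjusted p was 0.152.

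Members with and without the ISRE core in their promoter window had nearly the same median change. The 12 measured members with a match had a median log2 change of -0.02, with 7 negative and 5 positive changes. The 16 measured members whose window held none had a median of -0.02, with 10 negative and 6 positive. The unadjusted threshold was passed by 3 of the 12 with a match and by 0 of the 16 without, where 2.80% of all genes were higher and 2.41% lower. The 3 are the lower genes Ifit1, Ifit3 and Eif2ak2, with matches at the stretches printed above. Mx1, the member that was higher, has no promoter window and is in neither count. The other measured members with a match were Stat2 (-0.08), Trim30a (-0.03), Rsad2 (-0.03), Ifih1 (-0.02), Bst2 (0.00), Ddx58 (0.02), Gbp3 (0.02), Ifitm3 (0.02) and B2m (0.06). Whether the element bears on the changes was not tested. The absence of a match in a window says only that these letters are not there.

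Induced genes of one pathway can be expected to vary together when the signal differs between animals, so the members were also set against each other across the pools. Each group was centred on its own mean, so that the comparison of ethanol and saline plays no part, and Pearson's r was taken over the 6 pools for each pair of the 26 members above the receptor gene level. The median r over 325 pairs was 0.033, with quartiles of -0.346 and 0.322. Over all 77358141 pairs of the 12439 genes above that level the median was 0.031. An r over 0.5 was found in 18.2% of the members' pairs and in 22.1% of all pairs. The members thus did not vary together more than other genes do. Within the role groups the medians were -0.036 for receptors and transcription factors, -0.244 for sensors, -0.062 for effectors, 0.039 for the ISG15 and TRIM group and -0.192 for antigen processing. Over all 34 measured members the median was 0.033 in 561 pairs. All pairs share the same 6 arrays and rest on 4 degrees of freedom, so that single pairs ran from -0.968 to 0.983 and are not read.

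**Figure D3:**
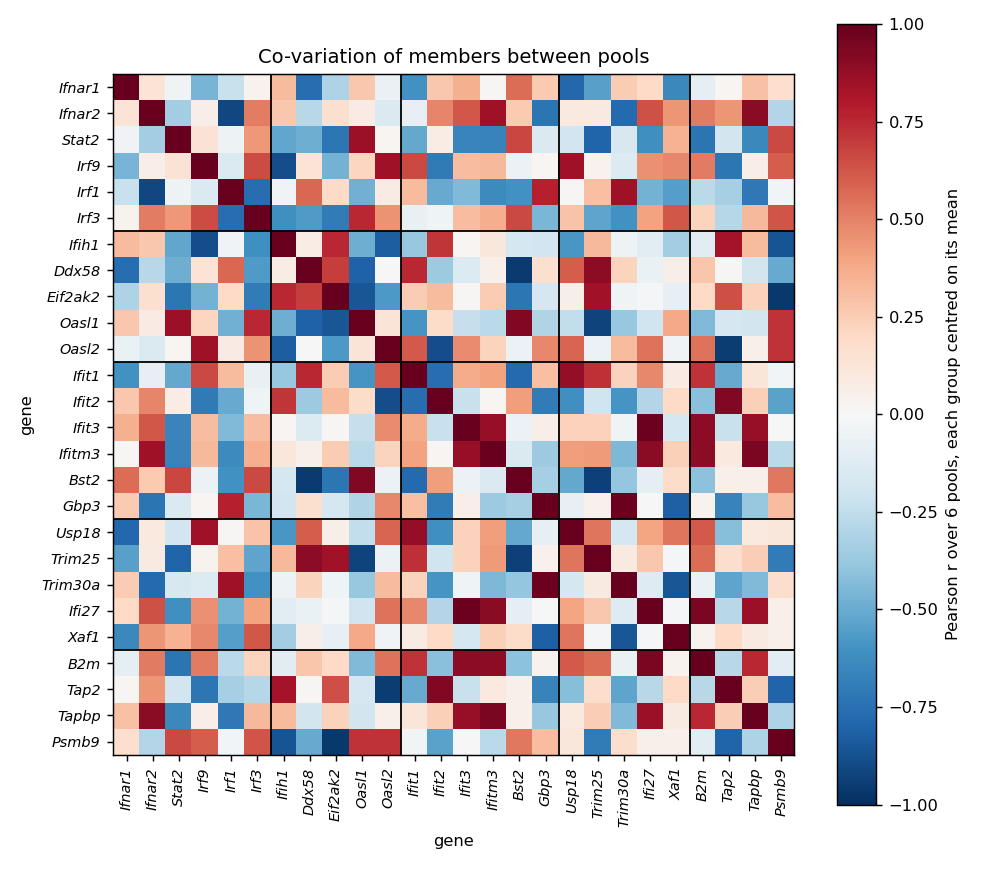
Pearson's r between the 26 members above the receptor gene level, over 6 pools with each group centred on its mean, in the order of the role groups (black lines). Red (positive) and blue (negative) cells are mixed in every block, and the median over pairs is 0.033.

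Pools that stood apart did so in both directions. Ethanol pool 1 was the highest of the 6 pools in 8 members and the lowest in 9, and was thus at one end in 17 of 34 (50% of members, against 29.2% of all genes). For ethanol pool 2 these numbers were 4 and 6, and for ethanol pool 3 8 and 7. Saline pools 1, 2 and 3 were the highest in 4, 7 and 3 members and the lowest in 4 each. Ethanol pool 1 also had the highest mean of the choroid plexus and of the thalamus markers. The following genes were grouped after their values were seen. In Ifi27, Ifitm3, Ifit3 and Tapbp, ethanol pools 1 and 3 lay above ethanol pool 2. So they did in the means of the choroid plexus markers and of 12 markers of meninges and fibroblasts. The latter were 0.26, -0.12 and 0.19 in the ethanol pools, relative to the saline average, against -0.07, -0.03 and 0.10 in the saline pools. Ethanol pools 1 and 3 also lay above pool 2 in the mean of border macrophage and blood myeloid markers (0.07, 0.02 and 0.10). The same held for 8 astrocyte markers (-0.02, -0.08 and -0.02) and the 1 measured red blood cell marker (0.18, -0.15 and -0.10). The order is thus not particular to 1 tissue. In Tap1, Tap2, Psmb8 and Ifit2, ethanol pool 1 was the highest of the ethanol pools, as in the thalamus markers. That pool was also the highest of them in the choroid plexus, meninges and endothelial means and in the red blood cell marker. This trait is therefore not particular to the thalamus markers. Over the set such orders were near those of all genes. Ethanol pool 2 was the lowest ethanol pool in 13 members (38.2%, against 33.3% of all genes), and ethanol pool 1 the highest in 13 (38.2%, against 32.6%). The part of these tissues in the members' values was not tested. Without ethanol pool 1 the changes were -0.21 for Ifit1 and -0.26 for Eif2ak2, which passed, and -0.13 for Ifit3, which did not. The mean of the thalamus markers also lay above the saline pools in ethanol pools 2 and 3.

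**Figure D4:**
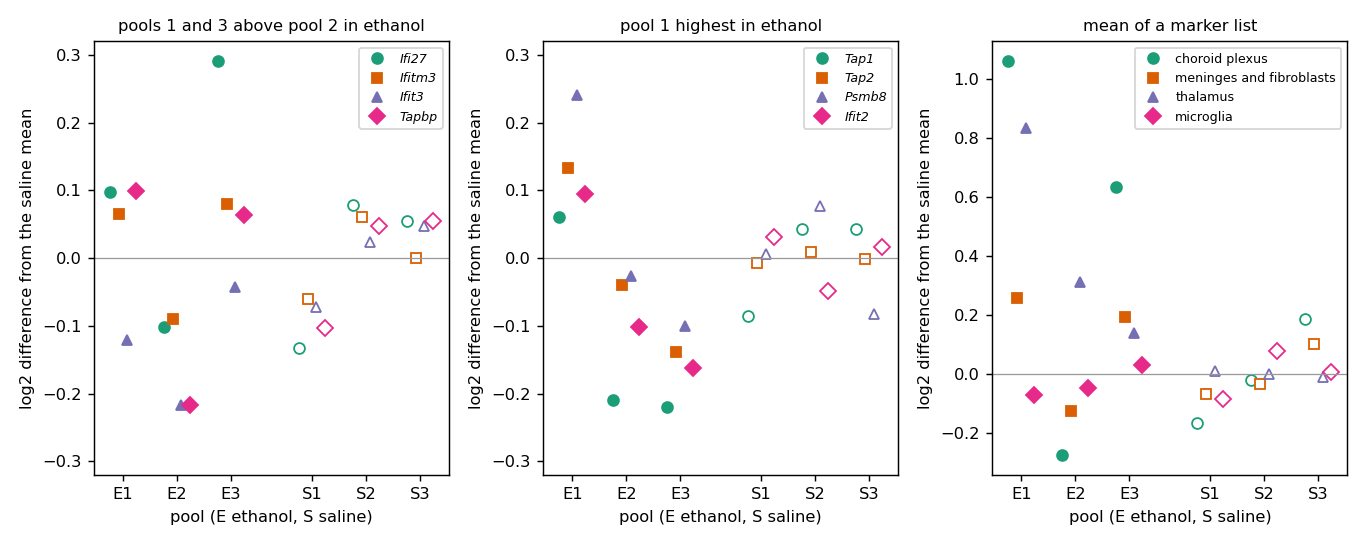
Log2 difference from the saline mean (vertical axes) in ethanol pools E1 to E3 (filled) and saline pools S1 to S3 (open), for 4 genes with ethanol pool 2 lowest of the ethanol pools, 4 genes with ethanol pool 1 highest of them, and the means of 4 marker lists. The gene panels share one scale and the marker panel has a wider one, with the choroid plexus at 1.06 in ethanol pool 1 and microglia between -0.08 and 0.08 in every pool.

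Cell types that carry much of the interferon response were checked by their markers. The 15 measured microglia markers averaged -0.07, -0.05 and 0.03 in the ethanol pools, relative to the saline average, against -0.08, 0.08 and 0.01 in the saline pools, and 0 passed the unadjusted threshold. Of 11 endothelial markers 0 passed, with means of 0.01, -0.03 and -0.07 in the ethanol pools, against -0.02, 0.04 and -0.01 in the saline pools. The pools did not overlap in 1 microglia marker (lower), 0 endothelial markers and 3 of 10 markers of T and NK cells (2 higher and 1 lower). Over all genes 10.4% did not overlap. All 10 markers of T and NK cells lay at or below the receptor gene level and 0 passed. Among 9 markers of border macrophages and blood myeloid cells, 2 lay above that level. In this list 2 were higher, where 2.80% of all genes were, and 0 were lower. They are the lysozyme gene Lyz2 (0.27 ± 0.11) and the platelet factor 4 gene Pf4 (0.16 ± 0.06, at the receptor gene level). The pools did not overlap in 2 markers, where 10.4% of all genes did not overlap. These are Pf4, higher, and S100a8, lower at -0.08 ± 0.04, which lay at the receptor gene level and did not pass. The list's mean was 0.07, 0.02 and 0.10 in the ethanol pools, against -0.02, 0.00 and 0.02 in the saline pools. The part of these cells in the members' values was not tested.

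Other genes of the pathway were read from 4 further lists, of which none had a gene past adjustment. Of 8 measured interferon genes, the ligands, 7 lay at or below the receptor gene level and 0 passed, with log2 changes from -0.07 to 0.10. The exception was Ifna5, with a mean of 8.47, and what its probe set detects was not tested. Of 30 measured genes of interferons, receptors and signalling 0 were higher and 1 was lower (3.33%, against 2.41% of all genes), Stat3, a transcription factor shared with many cytokines (-0.10 ± 0.04). The receptor kinase genes Jak1 and Tyk2 were at 0.02 ± 0.04 and -0.07 ± 0.04. The pools did not overlap in 4 of the 30 (13.3%, against 10.4% of all genes). These were Stat3, Tyk2, Ifng and Ifnlr1, each lower in every ethanol pool, with Ifng and Ifnlr1 at the receptor gene level. Among 38 further interferon-induced genes 1 was higher (2.63%, against 2.80% of all genes) and 0 were lower, with a median change of 0.02. The higher gene was Ifi44l, a relative of the unmeasured Ifi44, with 4.90, 4.98 and 5.03 in ethanol pools 1, 2 and 3, against 4.83, 4.74 and 4.82 in saline pools 1, 2 and 3 (0.18 ± 0.05, unadjusted p = 0.00548 in limma). Its pools did not overlap, but like Mx1 it lay at the receptor gene level. In all, the pools did not overlap in 3 of the 38 (7.89%, against 10.4% of all genes), each higher in every ethanol pool. Besides Ifi44l these were Ifi203 (0.18 ± 0.09, unadjusted p = 0.0696 in limma) and Ifitm1 (0.12 ± 0.06, unadjusted p = 0.0565 in limma). Both lay above the receptor gene level and did not pass.

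Of 17 further genes of MHC class I and antigen processing, 2 were higher (11.8%, against 2.80% of all genes) and 1 was lower (5.88%, against 2.41%). The median change of the 17 was -0.02, with 6 positive and 11 negative changes. The pools did not overlap in 4 of the 17 (23.5%, against 10.4% of all genes), the largest such share of the 4 lists. It was 7.89% among the further interferon-induced genes and 12.5% in MHC class II. These shares rest on few genes and were not tested. Psme1, a subunit of the proteasome activator PA28 that interferon gamma induces, had 8.87, 8.91 and 9.00 in ethanol pools 1, 2 and 3, against 8.75, 8.73 and 8.77 in saline pools 1, 2 and 3. It was well expressed, and every ethanol pool lay above every saline pool (0.17 ± 0.05, unadjusted p = 0.0043 and adjusted p = 0.931 in limma). Calr, the gene of calreticulin, a chaperone of MHC class I folding among other proteins, was higher at 0.10 ± 0.04, and Tapbpl, a relative of tapasin that edits the peptides, was lower at -0.15 ± 0.05. Among 8 genes of MHC class II, 1 was higher and 1 was lower (12.5% each, against 2.80% and 2.41% of all genes). Cd74, the invariant chain, was higher at 0.10 ± 0.04, and H2-Oa, a chain of a class II cofactor, was lower at -0.13 ± 0.05 and at the receptor gene level. None of these genes passed after adjustment over all probe sets (adjusted p = 0.931 in limma for each).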

How the data were processed

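The deposited values are log2 expression, 1 per probe set and array, which the authors obtained by gene-level RMA summarization of the probe signals. Neither the program used for RMA nor a build for the annotation of the array is given in the sources used here. Values were used as deposited, and 0 value columns were left without a sample. The array has 35556 probe sets, 21789 paired with a single gene symbol, 1621 with more than 1 and 12146 with no symbol. Of their gene IDs, 99.6% matched RefSeq (GRCm38.p6), which was used for names, loci and promoters. The number of arrays limits the precision.

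The 2 groups were compared with limma 3.58.1 (lmFit, eBayes) under R 4.3.3. The test was two-sided and had no covariate, since the authors' methods name an ANOVA and no covariate. The same comparison without moderation is called the methods' t-test and was run as an alternative. Benjamini-Hochberg adjustment ran over the 23410 probe sets with a symbol. An exact permutation test of 3 pools against 3 was not used, since it cannot pass the threshold. The members and all gene lists were chosen with earlier results of these data known. Full values were given for members past an unadjusted p under 0.05, members without overlap of the pools and, per role, the 2 brightest and the 1 with the largest SD within groups. Ifit2, Tap1, Tap2, Irf1, Ifit3b and Ifit1bl2 were described beyond this rule, after their values were seen, as members of a gene cluster, subunits of 1 transporter, a gene with 2 probe sets and 2 close relatives. So were Irf9, for its call with 1 array left out, and Psmb9, as the other immunoproteasome subunit of the set. Outside the set, up to 3 genes past that threshold were named per list, besides the receptor kinases. Ifna5, Ifng, Ifnlr1, Ifi203, Ifitm1 and S100a8 were also named after their values were seen, for their level or for pools that did not overlap. The fit was tested on simulated data. Figures were drawn with matplotlib 3.10.9.

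Alternatives were median centring, quantile normalization, leaving out dim probe sets (at or below the receptor gene level), fitting on all probe sets or only on those with 1 symbol, averaging the probe sets of a gene, limma with an intensity trend or with array weights, a block for the replicate number, the methods' t-test, each array left out, and, for correlations, Spearman's rho and no centring. The other arrays of the study were not analysed here.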

Additional observations from a re-analysis of the deposited data

How the results depend on the processing

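The 16 alternatives changed no result past adjustment: 0 members passed an adjusted p under 0.05 in limma or in the methods' t-test, where 4 and 2 passed unadjusted. Higher members numbered 0 with the filter on dim probe sets, which removes Mx1, and lower members 1 in the methods' t-test. Lower members numbered 2, without Ifit3, over all probe sets, over those with 1 symbol, with an intensity trend and with the filter. Members without overlap numbered 3 with quantile normalization. With 1 array left out, higher members numbered 0 to 2 and lower members 1 to 4 (4 without ethanol pool 1 or 3 and 1 without saline pool 2 or 3). Members without overlap then numbered 5 to 11. They were 11, 9 and 8 without ethanol pools 1, 2 and 3, and 7, 7 and 5 without saline pools 1, 2 and 3. Fewer pools part more easily, and the matching share over all genes was not computed, so these counts are not read. The median r between members was -0.012 with quantile normalization and -0.024 to 0.028 with 1 array left out. Median centring split the calls over all genes into 364 higher and 700 lower, against 559 and 481 as deposited, and left 1 higher and 3 lower members. Calls over all genes were 231 higher and 313 lower with the filter and 814 and 724 with array weights.

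The replicate number as a block (replicate block) gave 1 higher and 3 lower members with a median change of -0.02. Deviations of ethanol and saline pools of the same number correlated at -0.021, 0.04 and 0.08. Littermates were divided between the groups, but the sources used here do not tie the numbers of the pools to litters, and these correlations do not settle whether the pools are matched. Blocked, the 4 calls were those of Mx1, Eif2ak2, Ifit1 and Ifit3.

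Directions of 9 of the 19 members given with full values held under every alternative. With 1 array left out the sign turned in Ddx58 (-0.0045 to 0.053), Ifi27 (-0.0024 to 0.195), Ifitm3 (-0.012 to 0.073), Ifnar2 (-0.055 to 0.029), Irf7 (-0.034 to 0.117), Oasl1 (-0.160 to 0.047), Psmb8 (-0.064 to 0.107), Rsad2 (-0.096 to 0.039), Tapbp (-0.077 to 0.081) and Trim30a (-0.126 to 0.062), and with median centring in Ddx58 (-0.0001). The cause was not tested. These 10 genes have no settled direction in these data, and the 6 arrays limit what can be called.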
